A study of Drosophila melanogaster with 10 samples.

Results

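Cpr64Ac, snu, CG3829, stl, rdog, Tg and Ir40a are 7 of the 17676 genes counted in sorted type II neuroblasts (NB II) of Drosophila melanogaster larvae. They were taken by name, because their read counts differ widely between the 3 genotypes of the study, so their levels are described here and were not tested. They are joined by no common pathway. Cpr64Ac codes for a cuticle protein with a chitin-binding domain, snu (snustorr) for an ABC transporter needed for the lipid barrier of the cuticle, CG3829 for a class B scavenger receptor, stl (stall) for a secreted metalloprotease of the ADAMTS family that is needed in the ovary, rdog (red dog mine) for a predicted ABC transporter, Tg for the transglutaminase that crosslinks the hemolymph clot, and Ir40a for an ionotropic receptor of antennal neurons that sense dry air.

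NB II are neural stem cells of the larval brain that divide asymmetrically, renewing themselves while giving rise to intermediate neural progenitors (INPs). Brat is a translational repressor that is handed to the differentiating daughter, and without it NB II-like cells accumulate and form tumors. Spt5 travels with RNA polymerase II and supports the elongation of transcripts. None of the 7 genes is a known marker of these lineages, and most are known from epidermis, hemolymph, ovary or antenna.

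Cells of 3 genotypes were sorted from dissociated brains by scatter and GFP fluorescence, and poly(A) RNA was sequenced. All genotypes carried ase-GAL80, wor-GAL4 and UAS-mCD8::GFP. There were 3 libraries labelled brat-KD Spt5-KD, called the double label below (with UAS-siSpt5 and UAS-Brat-KD in addition), 4 of brat-KD (with UAS-Brat-KD in addition) and 3 of control NB II (with neither), all from larvae raised at 25° that were 96 h old per the labels. The driver restricts transgene expression to NB II, the labels describe the sorted cells as NB II with their descendants whereas the methods name NB II alone, and brains of many larvae were pooled for each sort per the methods. Library totals lay between 2158058 and 9753111 counts, and 3 counts, taken here as the limit of detection of 1 library, are worth 0.312 to 1.51 CPM (TMM-scaled counts per 1000000).

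Some libraries stood apart from their group or went against their label. Library 1 labelled brat-KD Spt5-KD had a count for 7544 genes, against 10819 and 9252 in libraries 2 and 3 of that label, and its rank correlations with them were 0.801 and 0.801, against 0.934 between libraries 2 and 3. Control library 1 had 8558 genes with a count, against 11617 and 11537 in the other control libraries. The brat transcript was lower in brat-KD than in the control, at 130 to 214 CPM against 880 to 1002 CPM (log2 fold change −2.48, edgeR adjusted p = 1.5e-05). This and all further tests are edgeR's quasi-likelihood test, with p-values adjusted by Benjamini-Hochberg over all genes tested and a threshold of 0.05. Under the double label it had 107 to 290 CPM. The Spt5 transcript had 205, 116 and 584 CPM under the double label, 128 to 165 CPM in brat-KD and 182 to 227 CPM in the control. It was therefore not lower under the label that names its knockdown (log2 fold change 1.06 ± 0.45 (SE) against brat-KD, edgeR adjusted p = 0.17, 1.29 with adjusted p = 0.024 without library 1 of that label, and 0.16 without library 3).

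Only 2 of the 7 genes were switched on or off in the strict sense. A gene was taken as absent from a genotype with at most 3 counts in each of its libraries, and as present with at least 10 CPM in each. Cpr64Ac was present in brat-KD and absent from the control, and stl was present under the double label and absent from both brat-KD and the control. Of all 17676 genes, 26 (0.147%) met this definition for any pair of genotypes. The other 5 genes were detected in every genotype, so that their differences are of level. In bulk samples, fewer cells with a transcript and less of it per cell cannot be told apart. In the strict sense 10 genes (0.0566%) were present under the double label and absent in brat-KD (CR10102, y and CG10184 had the highest medians after leaving out stl), 8 (0.0453%) were so against the control (e, GstE6 and y), 2 (0.0113%) were present in brat-KD and absent in the control (Cpr64Ac and CG4250), 9 (0.0509%) were present in the control and absent under the double label (qvr, Dbx and Hr51), and 1 (0.00566%), mthl8, was present in the control and absent in brat-KD. No gene was present in brat-KD and absent under the double label.

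**Figure D1:**
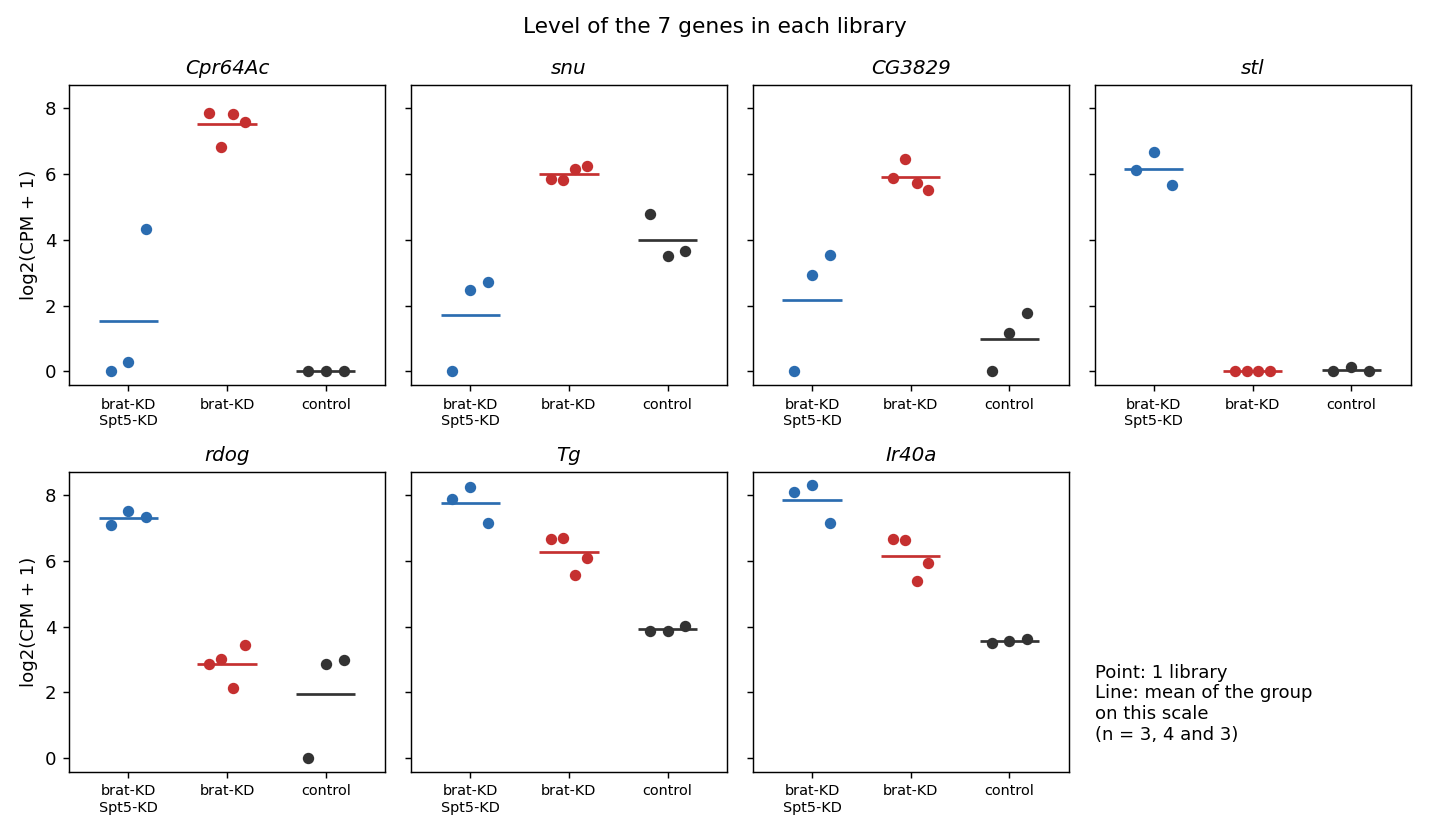
Level of each of the 7 genes on a log2(CPM + 1) scale in the 3 libraries of the double label, the 4 brat-KD and the 3 control libraries, with 1 point a library and a line at the mean of the group on this scale. Cpr64Ac, snu and CG3829 are highest in brat-KD, and stl, rdog, Tg and Ir40a are highest under the double label.

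The 3 genes with their highest level in brat-KD were Cpr64Ac, snu and CG3829. Cpr64Ac (FBgn0035512) had 233, 113, 228 and 191 CPM in the brat-KD libraries and no count in any of the 3 control libraries, in which 3 counts are worth 0.312 to 0.663 CPM. Set against this limit, taken per library, its mean of 191 ± 55.5 CPM (SD, n = 4) in brat-KD is at least 381-fold higher than in the control. The libraries of the double label differed from each other: 2 of them had 0 and 1 counts, whereas library 3 had 38 counts, or 19.2 CPM (95% interval 13.6 to 26.3 CPM, counting error only). All 3 lay below the lowest brat-KD library, and the fitted log2 fold change against brat-KD was −5.27 ± 1.19 (SE). This value was decided by single libraries, as it was −10.49 without library 3 of the double label and −4.59 without library 2.

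Cpr64Ac lies on chromosome arm 3L (4211964 to 4212915, minus strand, BDGP6.54), inside an intron of the larger gene CG43367 on the opposite strand, with which it shares no exonic base. CG43367 was past the threshold in both comparisons with brat-KD, at 217 ± 53.9 CPM (SD, n = 4) in brat-KD and 20.2 ± 4.34 CPM (SD, n = 3) in the control (log2 fold change 3.40, edgeR adjusted p = 1.6e-05), and at 27.0 ± 15.8 CPM (SD, n = 3) under the double label (log2 fold change −3.07 against brat-KD, edgeR adjusted p = 0.0040). Its count exceeded that of Cpr64Ac in every library. In brat-KD CG43367 had 1475, 820, 1881 and 1339 counts, and Cpr64Ac had 1335, 667, 1731 and 1152. The p-values of CG43367 therefore cannot be taken as separate from Cpr64Ac, which was picked from these contrasts. When the Cpr64Ac count was subtracted, 14.8 to 25.7 CPM were left of CG43367 under the double label, 19.8 to 31.0 CPM in brat-KD and 15.7 to 24.4 CPM in the control, and the ranges of the 3 genotypes overlapped. The counts do not show which reads the genes share, whether strand was used in counting is not given in the sources used here, and the part of shared reads in the CG43367 difference was not tested.

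The other cuticle genes of the cluster did not share the level of Cpr64Ac. Cpr64Ab, 424 bp to the left, reached at most 0.524 CPM in any library, Cpr64Aa at most 1.72 CPM, and Cpr64Ad, 2464 bp to the right, at most 1.73 CPM. ImpL2, which codes for a secreted antagonist of insulin-like peptides and lies 11091 bp away, did differ: it had 328 ± 118 CPM (SD, n = 4) in brat-KD and 16.6 ± 13.9 CPM (SD, n = 3) in the control (log2 fold change 4.28, edgeR adjusted p = 0.00021). ImpL2 in the libraries of the double label had 81.1 ± 29.6 CPM (SD, n = 3), with log2 fold change −2.03 against brat-KD (edgeR adjusted p = 0.0093). CG18675, 18996 bp away, fell in brat-KD to 13.7 ± 2.35 CPM (SD, n = 4), against 44.2 ± 2.70 CPM (SD, n = 3) in the control (log2 fold change −1.71, edgeR adjusted p = 0.00068, but 0.24 with all 3 genotypes in 1 fit).

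snu (FBgn0039594; 3R, 28675041 to 28695939, plus strand) overlaps no annotated gene. It had 57.1, 55.4, 71.0 and 74.4 CPM in brat-KD, against 26.8, 10.3 and 11.7 CPM in the control. Every brat-KD library lay above every control library, with a ratio of the means of 3.96 and a log2 fold change of 1.96 ± 0.35 (SE), or 2.57 without control library 1. Under the double label it had 0, 4.55 and 5.55 CPM, all below the control. These values rest on 0, 21 and 11 counts. The log2 fold change was −4.34 ± 0.87 (SE) against brat-KD and −2.30 ± 1.38 (SE) against the control, and without library 1 of that label, the one with no count, it was −3.71 and −1.70. The nearest genes did not follow snu: htt (huntingtin), 303 bp away, had 43.3 ± 14.6 CPM (SD, n = 3) under the double label, 49.6 ± 4.58 CPM (SD, n = 4) in brat-KD and 43.0 ± 7.70 CPM (SD, n = 3) in the control and passed the threshold in no comparison, and Sid had no more than 3 counts in any library.

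CG3829 (FBgn0035091; 2R, 24986044 to 24990489, plus strand) had 57.8, 87.8, 52.5 and 44.8 CPM in brat-KD, against 0, 1.25 and 2.43 CPM in the control. The groups were far apart, with a log2 fold change of 5.66 ± 0.63 (SE), which was 6.33 without control library 3. Under the double label it had 0, 6.71 and 10.6 CPM. It was therefore below brat-KD in each of them (log2 fold change −3.47 ± 0.95 (SE), −2.87 without library 1 and −4.15 without library 3), but overlapped the control, where the fitted difference of 2.22 ± 1.92 (SE) moved between 1.43 and 3.11 when single libraries were left out. Both libraries with no CG3829 count, library 1 of the double label and control library 1, were those that stood apart from their groups. CG3829 shares 27 exonic bp with emp, another class B scavenger receptor gene on the opposite strand. emp had 11.1 ± 9.60 CPM (SD, n = 3) under the double label, 12.2 ± 3.83 CPM (SD, n = 4) in brat-KD and 8.56 ± 5.05 CPM (SD, n = 3) in the control, passed the threshold in no comparison and was below CG3829 in each brat-KD library.

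The genes with their highest level under the double label were stl, rdog, Tg and Ir40a. stl (FBgn0086408; 2R, 22807860 to 22815993, plus strand) had 68.5, 101 and 50.4 CPM in these libraries, from 291, 465 and 100 counts. It had no count in any of the 4 brat-KD libraries, and 0, 1 and 0 counts in the control. Its mean of 73.2 ± 25.5 CPM (SD, n = 3) is at least 152-fold higher than the limit of 3 counts per library in brat-KD. Against the single count of the control the ratio of the pooled CPM was 1562, with an interval of 280 to 61750 for counting error. With both at or under the limit, no fold change between brat-KD and the control can be given. The annotation places a stretch of an INE-1 transposon over 68 bp of stl and no gene. CG30271, 481 bp to the right on the same strand, had 6.61 ± 7.41 CPM (SD, n = 3) under the double label, at most 0.132 CPM in brat-KD and no count in the control. CycB, which codes for cyclin B and lies 912 bp to the left, had 251 ± 52.4 CPM (SD, n = 3) under the double label and 466 ± 106 CPM (SD, n = 4) in brat-KD (log2 fold change −0.92, edgeR adjusted p = 0.033, and 0.076 to 0.11 without brat-KD library 1, 3 or 4 or library 2 of the double label), and 289 ± 33.8 CPM (SD, n = 3) in the control (log2 fold change of brat-KD 0.67, edgeR adjusted p = 0.021, and 0.056 to 0.085 without brat-KD library 3 or 4 or control library 3).

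rdog (FBgn0039644; 3R, 29158122 to 29164966, plus strand) overlaps no annotated gene. It had 136, 183 and 161 CPM under the double label. In brat-KD it had 6.28, 7.12, 3.43 and 9.96 CPM, and in the control 0, 6.25 and 6.86 CPM. It was thus detected in all but control library 1, and the double label stood above both other groups, with log2 fold changes of 4.56 ± 0.35 (SE) against brat-KD and 5.20 ± 0.97 (SE) against the control (4.56 without control library 1). brat-KD and the control overlapped, with a log2 fold change of 0.62 ± 1.02 (SE), and 0.04 without control library 1. CG11898, the adjacent ABC transporter gene 677 bp away, reached at most 0.830 CPM in any library. On the other side, 867 bp away, Rpn2, a proteasome subunit gene, had 605 ± 86.4 CPM (SD, n = 3) under the double label, 406 ± 36.1 CPM (SD, n = 4) in brat-KD and 544 ± 29.1 CPM (SD, n = 3) in the control, and fell in brat-KD against the control (log2 fold change −0.44, edgeR adjusted p = 0.028, and 0.057 to 0.14 in 7 of 13 alternatives, among them those without brat-KD library 1 or 3 or control library 2 or 3). Here and in what follows alternatives are counted without the replicate block.

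Tg and Ir40a lie far apart on arm 2L and were counted at similar levels in every library. Tg (FBgn0031975; 8011405 to 8026898, plus strand) had 234, 302 and 142 CPM under the double label, 101, 102, 46.7 and 67.6 CPM in brat-KD, and 13.6, 13.5 and 15.3 CPM in the control. Ir40a (FBgn0259683; 22189526 to 22214376, minus strand) had 275, 314 and 142 CPM under the double label, 101, 97.6, 41.3 and 60.6 CPM in brat-KD, and 10.4, 10.9 and 11.3 CPM in the control. The 3 genotypes did not overlap for either gene. The log2 fold changes were 2.48 ± 0.30 (SE) for Tg and 2.77 ± 0.33 (SE) for Ir40a in brat-KD against the control, 1.496 ± 0.33 (SE) and 1.69 ± 0.36 (SE) under the double label against brat-KD, and 4.01 ± 0.35 (SE) and 4.49 ± 0.37 (SE) under the double label against the control. The ratio of the Ir40a count to the Tg count lay between 0.739 and 1.18, and was below 1 in every brat-KD and control library. It was lowest in the control, at 0.739 to 0.808, where the counts were also lowest. The 95% interval of the ratio, for counting error, included 1 in 9 of 10 libraries. The exception was library 1 of the double label, at 1.18 (1.08 to 1.28). CG7367, the gene 16 bp to the right of Tg, had 366 ± 78.6 CPM (SD, n = 3) under the double label, 360.5 ± 24.7 CPM (SD, n = 4) in brat-KD and 442 ± 110.1 CPM (SD, n = 3) in the control, and passed the threshold in no comparison. CG3635, 5535 bp from Ir40a, had at most 15.6 CPM and CR12628, on its other side, at most 7.07 CPM in any library, and neither passed the threshold in a comparison.

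**Figure D2:**
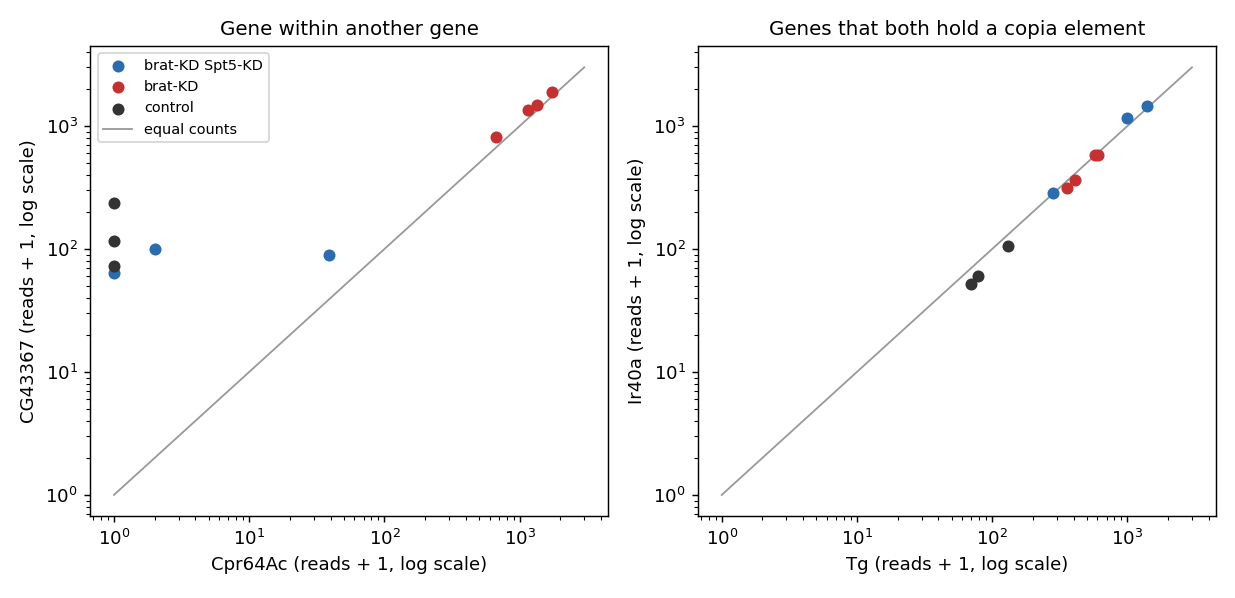
Reads counted for CG43367 against Cpr64Ac, which lies inside it (left), and for Ir40a against Tg (right), each plus 1 on log scales, with 1 point a library and a line of equal counts. In brat-KD the CG43367 count lies just above that of Cpr64Ac, and the Ir40a and Tg counts lie close to the line, with ratios of 1.00 to 1.18 under the double label, 0.884 to 0.995 in brat-KD and 0.739 to 0.808 in the control, where all 3 libraries lie below it.

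What Tg and Ir40a have in common in the annotation is a copia element, an LTR retrotransposon of which the genome holds many nearly identical copies. In Tg the copia lies at 8013669 to 8018814 and is 5146 bp long, and in Ir40a it lies at 22201408 to 22206551 and is 5144 bp long. Both lie between exons, on the strand of the gene, and share no base with an exon. Tg also holds a Doc element, and Ir40a overlaps other transposon annotations. The spans of 15 further genes in the table hold a copia of at least 5000 bp, on the same strand in 6 and on the opposite strand in 9, of which CG43954 and Lasp overlap and share a copia. This list was chosen after the values of Tg and Ir40a had been seen, and is described with no test. CG43954 and Lasp also had the same count in every library, so the same values enter each tally over the list under both names.

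The copia-holding genes were counted at a common minimum that moved with the library. In every library each of the other 15 genes had at least 0.740 times the Tg count. Their lowest counts were 808, 1297 and 236 under the double label, where Tg had 994, 1394 and 281, and 447, 497, 291 and 358 in brat-KD, where Tg had 579, 604, 354 and 407. In the control they were 57, 142 and 52, where Tg had 77, 130 and 69. The 15 genes have unlike products, such as CadN2, a cadherin, beat-Vb, an immunoglobulin protein, and rut, an adenylyl cyclase. All 15 had a positive log2 fold change in all 3 comparisons, with a median of 1.80 in brat-KD against the control (−0.02 over all 8785 genes tested), 1.27 under the double label against brat-KD (−0.05 over 8750 genes) and 2.94 under the double label against the control (−0.01 over 8506 genes). The brat-KD libraries lay wholly above the control for 14 of the 15 (20.3% of all genes tested did so), the double label wholly above brat-KD for 13 (12.9% of all genes), and wholly above the control for all 15 (15.8% of all genes). For the Doc element of Tg the values were less uniform. The 26 other genes holding a Doc of at least 4500 bp, and no long copia, had medians of −0.00, 0.33 and 0.66 in the same comparisons and counts down to 0. The log2 fold change was positive in 12 of 25, 14 of 26 and 16 of 26 of those tested. Libraries lay wholly above in 5, 6 and 11 of them, against the same 20.3%, 12.9% and 15.8% of all genes. The share of the Tg and Ir40a counts that comes from reads of copia was not tested, since the table gives counts per gene and not positions of reads. The values of Tg and Ir40a are therefore given as counts over these spans, and were not shown to be spliced messenger RNA.

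**Figure D3:**
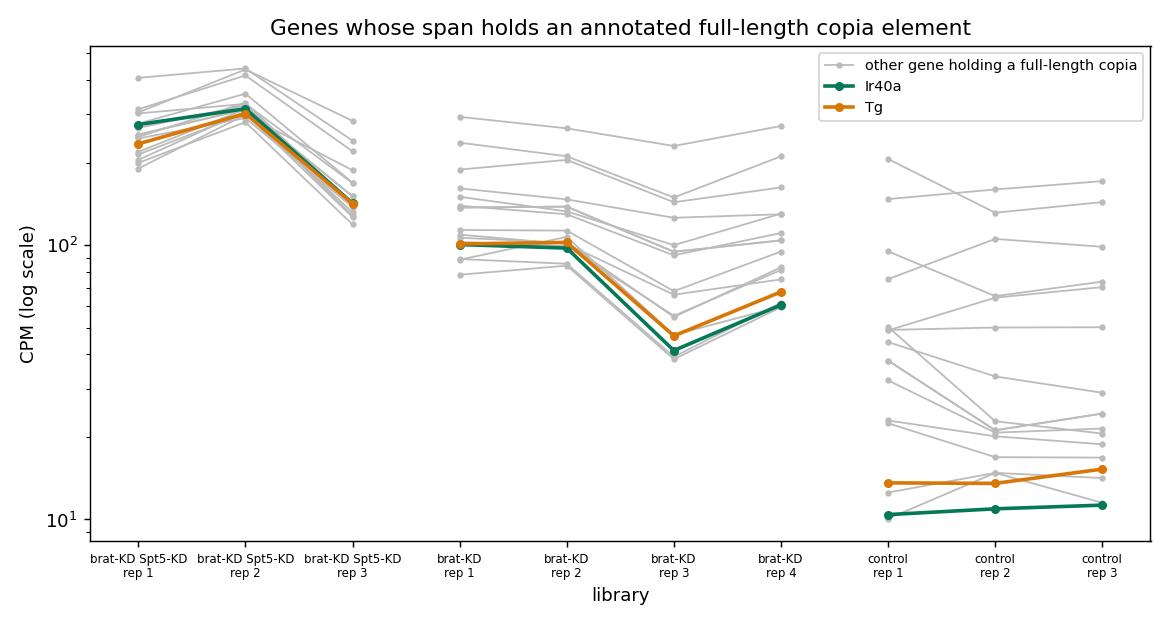
CPM on a log scale of Tg, Ir40a and the 15 other genes whose span holds an annotated copia of at least 5000 bp, in each library, with lines joining the libraries of 1 genotype. Tg and Ir40a run along the lower edge of the bundle in brat-KD and the control, and all 17 genes have their highest mean under the double label.

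Markers of the cells in which Ir40a works were at low levels. Ir93a and Ir25a, the co-receptors it needs in dry-air sensing neurons, had at most 11.1 and 6.33 CPM in any library, and Orco, Ir8a and Obp19d, markers of other chemosensory cells, had no count under the double label, though each had counts in brat-KD and in the control. The summed level of the 5 chemosensory markers was 5.41 to 11.1 CPM under the double label, 1.52 to 12.8 CPM in brat-KD and 6.36 to 11.5 CPM in the control, and overlapped between the genotypes.

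Seen together, 5 of the 7 genes (Cpr64Ac, snu, CG3829, Tg and Ir40a) were higher in every brat-KD library than in every control library, and 20.3% of the 8785 genes tested were separated in that direction and 18.4%, but none of the 7, in the other. Under the double label all 7 were separated from brat-KD, 4 upward (stl, rdog, Tg and Ir40a) and 3 downward (Cpr64Ac, snu and CG3829), against 12.9% and 16.6% of 8750 genes. Against the control 4 were separated upward and 1, snu, downward under the double label, against 15.8% and 18.3% of 8506 genes. The genes were chosen on these contrasts, so nothing is read from these counts. Cpr64Ac under the double label against the control and stl in brat-KD against the control did not pass the filter on low counts and have no fitted value.

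The likeness of the genes to each other was described across all libraries, not within a genotype. Across the 10 libraries Cpr64Ac and CG3829 had a Pearson correlation of 0.93 on the log2(CPM + 1) scale, whereas snu had 0.74 with Cpr64Ac and 0.72 with CG3829, as it alone of these was at 10 CPM or more in each control library. stl and rdog were at 0.93, and Tg and Ir40a at 0.999. The libraries share genotype and depth, so these values describe the pattern over the groups as much as over single libraries. Per kb of exon, brat-KD levels were 215 CPM for Cpr64Ac, 19.0 for CG3829 and 14.4 for snu, and levels under the double label were 31.8 CPM for rdog and 16.1 for stl. Cpr64Ac in brat-KD was thus the most abundant of the 5 per length.

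Beside the 7 genes lay 57 other genes of the table, none of which was switched on or off in the strict sense. All lay within 20 kb except uzip, the nearest gene to the right of CG3829, 21573 bp away. In brat-KD against the control 7 of 33 tested neighbours rose and 4 fell (28.1% of all genes tested passed the threshold, 13.8% upward and 14.3% downward). Against brat-KD 1 of 34 rose and 3 fell under the double label (11.6% of all genes, 5.91% upward and 5.71% downward), and 1 of 32 rose against the control (7.29%, 3.97% upward and 3.32% downward). CG43367 is counted among those that rose in brat-KD and fell under the double label, though its calls cannot be taken as separate from Cpr64Ac. Beside CG43367, ImpL2, CG18675, CycB and Rpn2, the neighbours past the threshold were Pglym78 (phosphoglycerate mutase), Slbp (histone mRNA binding) and eIF2D near rdog, and pes, Cka and CCDC53 near Tg. eIF2D lost its call in 7 of 13 alternatives (adjusted p up to 0.73 with all 3 genotypes in 1 edgeR fit), Slbp in 4 (up to 0.27 in the same fit, and without brat-KD library 2, 3 or 4) and Cka without control library 2 (0.10). Pglym78, the gene that rose under the double label against the control, lost that call in 5 of 12, those without library 2 or 3 of the label or any 1 control library. Of these, CCDC53 had 31.6 ± 12.4 CPM (SD, n = 3) under the double label and 8.997 ± 2.77 CPM (SD, n = 4) in brat-KD (log2 fold change 1.79, edgeR adjusted p = 0.043, and 0.056 to 0.11 without any 1 brat-KD library, library 2 or 3 of the double label, or the filter). In the control CCDC53 had 27.1 ± 7.72 CPM (SD, n = 3). It was thus lower in brat-KD than in the control (log2 fold change −1.61, edgeR adjusted p = 0.010). The double label and the control overlapped (log2 fold change 0.21, edgeR adjusted p = 0.89). Pglym78 had 251 ± 69.9 CPM (SD, n = 4) in brat-KD and 91.9 ± 12.3 CPM (SD, n = 3) in the control (log2 fold change 1.43, edgeR adjusted p = 0.00078), where rdog overlapped.

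**Figure D4:**
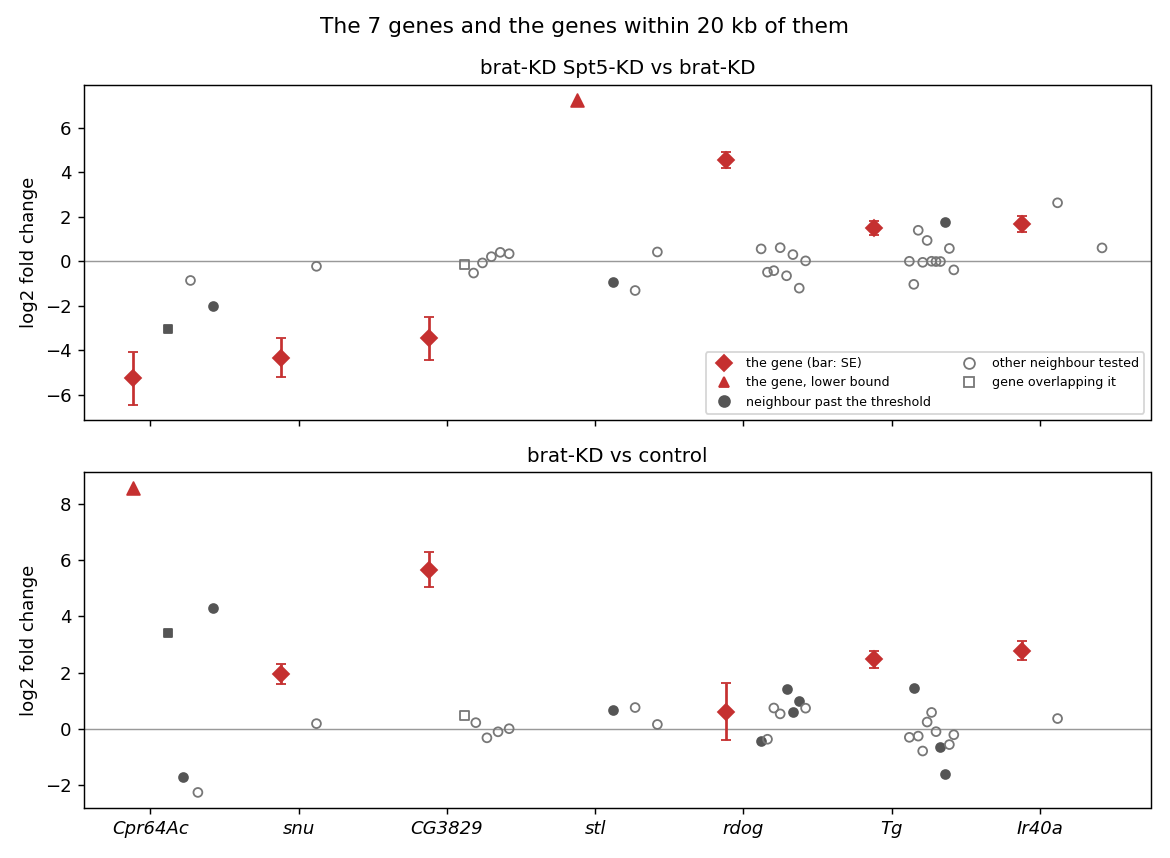
Log2 fold change of each of the 7 genes (red diamonds with SE, or a triangle for the log2 of a lower bound) and of the tested genes within 20 kb of it, with uzip added beside CG3829 (circles, or squares where the gene overlaps it, filled where past the adjusted p threshold), under the double label against brat-KD (top) and in brat-KD against the control (bottom). Under the double label CG3635 beside Ir40a and CCDC53 beside Tg lie at least as far from 0 as the gene itself, and in brat-KD 5 of the 8 tested neighbours of rdog do (Pglym78, Slbp, eIF2D, superdeath and jus), while no other tested neighbour does in either panel.

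The families of the 7 genes were next surveyed in 7 lists, each without the 7 genes themselves. Neighbours described above, such as pes, stayed in the lists. Of 125 cuticle structural proteins 42 had no count in any library, and only 8 or 9 passed the filter in a comparison. None rose or fell in brat-KD against the control (28.1% of all genes tested passed the threshold), with a median log2 fold change of −0.24 (−0.02 over all genes). Under the double label the medians were 1.18 against brat-KD (−0.05 over all genes, of which 11.6% passed) and 1.36 against the control (−0.01 over all genes, of which 7.29% passed). Ccp84Ad alone rose there, to 26.9 ± 12.4 CPM (SD, n = 3), against 0.470 ± 0.640 CPM (SD, n = 4) in brat-KD and 0.243 ± 0.421 CPM (SD, n = 3) in the control (log2 fold changes 5.80 and 6.48, edgeR adjusted p = 0.018 and 0.037, above 0.05 without library 2 of the label or brat-KD library 1, and in all but 1 of the fits against the control that left out a library). Of the 23 genes of the cuticle barrier and chitin 17 or 18 were tested in a comparison. Their medians were −0.15 in brat-KD against the control (−0.02 over all genes) and −0.34 under the double label against brat-KD (−0.05 over all genes). Under the double label against the control the median was −0.50 (−0.01 over all genes). The same 28.1%, 11.6% and 7.29% of all genes tested passed in these comparisons. Of these, grh, whose product Grainyhead drives epidermal barrier genes and is also made in neuroblasts, rose in brat-KD to 584 ± 60.7 CPM (SD, n = 4), against 139 ± 40.2 CPM (SD, n = 3) in the control (log2 fold change 2.05, edgeR adjusted p = 6.4e-05). In the libraries of the double label grh was lower, at 216 ± 37.2 CPM (SD, n = 3), with log2 fold change −1.45 against brat-KD (edgeR adjusted p = 0.0037). One other gene of this list passed, m (miniature, a zona pellucida protein of the cuticle), at 21.4, 2.599 and 2.52 CPM under the double label and 0.132 to 0.847 CPM in brat-KD (log2 fold change 4.48, edgeR adjusted p = 0.041, but 2.72 with adjusted p = 0.14 without library 1 of that label, and 0.053 to 0.13 in 6 more of 12 alternatives, those without any 1 brat-KD library included). In the control m had 18.4, 0.312 and 0.885 CPM. Its highest values thus lay in library 1 of the double label and control library 1, which stood apart from their groups.

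Of 47 other ABC transporter genes, 34 were tested in brat-KD against the control, of which 5 rose and 3 fell (28.1% of all genes tested passed), with a median of 0.46 (−0.02 over all genes). Against brat-KD 5 of 35 rose and 2 fell under the double label (11.6% of all genes), with a median of 0.21 (−0.05 over all genes), and against the control 4 of 31 rose and 1 fell (7.29% of all genes), with a median of 0.80 (−0.01 over all genes). Over the alternatives the genes past the threshold numbered 5 to 13, 3 to 9 and 0 to 9 in these comparisons. In brat-KD the transporter gene FBgn0010549 rose to 72.4 ± 6.82 CPM (SD, n = 4), against 11.4 ± 8.30 CPM (SD, n = 3) in the control (log2 fold change 2.65, edgeR adjusted p = 0.0010), and Cftr to 89.8 ± 12.3 CPM (SD, n = 4), against 14.9 ± 10.2 CPM (SD, n = 3) (log2 fold change 2.57, edgeR adjusted p = 0.00077). Mdr49, a multidrug transporter, had 74.4 ± 39.1 CPM (SD, n = 3) under the double label and 3.89 ± 3.20 CPM (SD, n = 4) in brat-KD (log2 fold change 4.23, edgeR adjusted p = 0.0069). CG1494 had 52.4 ± 20.8 CPM (SD, n = 3) under the double label and 3.88 ± 2.25 CPM (SD, n = 4) in brat-KD (log2 fold change 3.73, edgeR adjusted p = 0.0068). Like rdog, both stood above brat-KD in each library of the double label. Near the threshold stood CG43672, with no count under the double label and 1.16 to 4.01 CPM in brat-KD (edgeR adjusted p = 0.0495, above 0.05 in 6 of 9 alternatives), and w (white), with 223 ± 146 CPM (SD, n = 3) under the double label and 59.4 ± 7.81 CPM (SD, n = 3) in the control (edgeR adjusted p = 0.041, and 0.063 to 0.18 without library 2 or 3 of the label or any 1 control library), which is also a common marker gene of fly transgenes. Abca3 fell in brat-KD to 7.13 ± 2.36 CPM (SD, n = 4), against 21.1 ± 6.87 CPM (SD, n = 3) in the control (log2 fold change −1.58, edgeR adjusted p = 0.019, and 0.056 to 0.15 without brat-KD library 1 or control library 2 or with all 3 genotypes in 1 fit).

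The remaining families were mostly at low levels. Their medians in brat-KD against the control, under the double label against brat-KD and under the double label against the control were 0.56, −0.59 and 0.40 for class B scavenger receptors, −0.50, 0.44 and −0.17 for ADAM and ADAMTS proteases, and 0.00, −0.35 and 0.66 for ionotropic receptors, against −0.02, −0.05 and −0.01 over all genes. Of all genes tested 28.1%, 11.6% and 7.29% passed the threshold in these comparisons. Of 13 other class B scavenger receptors 3 or 4 were tested: pes, which takes part in the uptake of microbes, rose in brat-KD to 18.8 ± 5.86 CPM (SD, n = 4), against 6.83 ± 1.73 CPM (SD, n = 3) in the control (log2 fold change 1.45, edgeR adjusted p = 0.025, and 0.076 to 0.10 without brat-KD library 3 or control library 2 or 3 or with all 3 genotypes in 1 fit). CG40006 rose under the double label to 19.99 ± 2.90 CPM (SD, n = 3), against 1.58 ± 0.607 CPM (SD, n = 4) in brat-KD (log2 fold change 3.63, edgeR adjusted p = 0.0093), and 1.29 ± 0.356 CPM (SD, n = 3) in the control (log2 fold change 3.92, edgeR adjusted p = 0.032, but 0.055 to 0.19 in 6 of 11 alternatives, those without library 2 or 3 of the label or any 1 control library included). Of 8 genes of ADAM and ADAMTS proteases and their relatives, all tested, Tace fell in brat-KD to 25.0 ± 4.03 CPM (SD, n = 4), against 117 ± 44.1 CPM (SD, n = 3) in the control (log2 fold change −2.22, edgeR adjusted p = 0.00016). AdamTS-B had 62.1 ± 25.5 CPM (SD, n = 3) under the double label and 15.0 ± 7.43 CPM (SD, n = 4) in brat-KD (log2 fold change 2.03, edgeR adjusted p = 0.038, and 0.059 to 0.11 without any 1 brat-KD library or library 2 of the double label), so that stl was not the only ADAMTS gene with its highest level there. Against the control AdamTS-B rose and Tace fell under the double label (log2 fold changes 2.53 and −2.47, edgeR adjusted p = 0.039 and 0.015), but AdamTS-B lost this in 5 of 12 alternatives and Tace in 4, all of them fits that left out a library. Of 65 other ionotropic receptors 35 had no count at all, 5 to 7 were tested, and 1, Ir62a, passed the threshold, with no count under the double label and 2.27 to 5.67 CPM in brat-KD (edgeR adjusted p = 0.034, and 0.060 to 0.099 in 8 of 12 alternatives, those without any 1 brat-KD library or library 2 or 3 of the double label included). Of 12 genes of the hemolymph clot and related proteins only 1, 4 and 2 were tested in the same comparisons, with medians of −0.63, 4.23 and 5.95. Hml (hemolectin) alone passed the threshold, with 16.0, 8.23 and 6.55 CPM under the double label, at most 0.349 CPM in brat-KD and no count in the control, at least 20.5-fold more than the limit of 3 counts per library in the control (edgeR adjusted p = 0.016 against brat-KD, and 0.051 to 0.054 without brat-KD library 2, 3 or 4, and 0.037 against the control, and 0.074 to 0.16 without any 1 control library or library 2 or 3 of the label).

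Markers of other cells were set beside these genes. Hml is also a marker of hemocytes. The summed level of 5 hemocyte markers, Hml among them, was 9.08 to 16.3 CPM under the double label. In brat-KD the sum was 0 to 1.85 CPM and in the control 0.221 to 0.833 CPM. It was highest under the double label, as was stl, and overlapped between brat-KD and the control. Hml made up most of the sum under the double label, at 16.0, 8.23 and 6.55 CPM, and NimC1, eater and He were at 0 in all 10 libraries. The summed level of 6 markers of trachea and epidermis was 341 to 391 CPM under the double label, 698 to 767 CPM in brat-KD and 213 to 501 CPM in the control, in the direction of Cpr64Ac, snu and CG3829. Without grh the other 5 of these markers summed to 112 to 206, 87.9 to 191 and 99.6 to 315 CPM in the same order, and overlapped between all 3 genotypes. The 5 neuroblast markers were at 1 CPM or more in every library, but their sum was lower under the double label, at 1805 to 2092 CPM, than in brat-KD, at 3144 to 3673 CPM, and the control, at 3127 to 4208 CPM. The 3 type II neuroblast markers summed to 204 to 426 CPM under the double label, 610 to 828 CPM in brat-KD and 219 to 319 CPM in the control, also in the direction of Cpr64Ac, snu and CG3829. The 5 neuron markers summed to 101 to 184 CPM under the double label, 103 to 159 CPM in brat-KD and 504 to 591 CPM in the control, so that the control held the highest level. The 5 INP markers summed to 70.4 to 492 CPM under the double label, 67.4 to 143 CPM in brat-KD and 387 to 488 CPM in the control. The lowest library of the double label thus lay within the brat-KD range. The part of these shifts in cell type markers in the levels of the 7 genes was not tested.

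The genes most like each of the 7 were found by the Pearson correlation of log2(CPM + 1) over the 10 libraries, among 7452 genes with a mean of at least 10 CPM in a genotype. For Cpr64Ac these were jigr1 (0.97), Jheh2, a juvenile hormone epoxide hydrolase (0.97), and Prps (0.96), and for CG3829 CenB1A (0.98), jigr1 (0.98) and CG5504 (0.97). snu was closest to Nadsyn (0.98), l(2)gl (0.98) and the insulin receptor gene InR (0.97). All of these were highest in brat-KD, but none was absent elsewhere: jigr1 averaged 291 CPM under the double label, 570 CPM in brat-KD and 229 CPM in the control. stl was closest to CG40006 (0.99), CG10184 (0.99) and fusl (0.99), of which fusl had 19.8, 11.5 and 18.2 CPM under the double label, no count in brat-KD and at most 1 count in a control library. rdog was closest to Cyp9f2 (0.97), Fhos (0.97) and CG16787 (0.97). Leaving each other aside, Tg and Ir40a were closest to beat-Vb and CadN2, at 0.996 to 0.997, both of which hold a copia.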

How the data were processed

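Libraries were directional and poly(A)-selected (75 sequencing cycles, 17 or 24 PCR cycles). The authors used bowtie2 (local alignment, very sensitive preset) against BDGP6, and deposited raw counts per gene, not normalized. The counting program, its annotation and its use of strand are not given in the sources used here. The submitters' processing notes name FastQC, edgeR 3.26.8 and dm6.

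The genes and lists were chosen with earlier results of these data known. CPM were scaled with TMM over all 10 libraries. Each pair of genotypes was fitted alone with edgeR 4.0.16 in R 4.3.3 (filterByExpr, quasi-likelihood test, Benjamini-Hochberg adjustment over all genes tested, threshold 0.05). No p is given for the 7 genes, which were picked from these contrasts. Spans, overlaps and copia elements came from the Ensembl annotation (release 115, BDGP6.54), which held 17549 of 17676 genes. The procedure was run on counts simulated from its own fitted model, which cannot show how it treats libraries that stand apart from their group. Replicates are libraries, and p-values measure the spread between them, which may in part be technical. Intervals, exact at 95%, cover counting error only, as amplified reads carry no molecular identifiers.

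Genes named are the 7, brat and Spt5, overlapping and nearest genes, neighbours within 20 kb past the threshold, up to 3 called genes of each list with the largest change, the 3 most similar genes, and up to 3 genes switched on or off per pair of genotypes. The copia and Doc genes were chosen after their values were seen. Alternatives were DESeq2 1.42.0, its size factors, total counts, no filter, a minimum of 10 counts per library, 1 fit over the 3 genotypes, a replicate block, leaving out each library, and, chosen after seeing the data, a copia length of at least 4000 bp.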

Additional observations from a re-analysis of the deposited data

Results flagged for a closer look

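In 13 of 64 groups of 4 brat-KD libraries screened, 1 library lay far from the other 3 by Dixon's criterion, which chance alone meets in about 1 in 20 groups. That rate does not hold near the limit of detection, where a gene counted in only 1 of the 4 libraries always meets the criterion. All 13 concern genes beside the 7, and none of the 7 was among them. Only 3 of these genes were above a few CPM: htt had 56.4 CPM in brat-KD library 2 (46.8 to 48.3 CPM in the others), CG42260 had 16.1 CPM in library 3 (41.7 to 42.6 CPM) and pes had 27.6 CPM in library 3 (15.2 to 16.4 CPM). The others are near the limit of detection. Cpr64Ad had 1.22 CPM in library 1 and Cpr64Aa 1.72 CPM in library 3 (0 to 0.169 CPM in the others of each), and lncRNA:CR45252 had 2.24 CPM in library 3 (0 to 0.349 CPM). CG15005 and CG2736 had 0.175 CPM, and CG42284 and CG30274 0.349 CPM, in library 1 alone. snoRNA:Psi28S-2648 had 0.339 CPM in library 2, CG30271 0.132 CPM in library 3 and Glyat 0.664 CPM in library 4, with no count in the others. Groups of 3 libraries were not screened.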

How the results depend on the processing

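The 7 genes kept the direction of each fitted difference in all alternatives. Of the values recomputed for them, 244 moved by less than the spread between replicates and 5 by more. The number of genes past the threshold in brat-KD against the control was 2467, 1250 with all 3 genotypes in 1 fit, and 1691 to 3229 when single libraries were left out. Under the label brat-KD Spt5-KD against brat-KD it was 1017, 1742 with DESeq2, and 334 (without brat-KD library 1) to 2408 (without library 1 of the double label). Against the control it was 620, 1495 with DESeq2, 1450 with all 3 genotypes in 1 fit, and 64 (without control library 2) to 1504 (without library 1 of the double label). Genes switched on or off numbered 26, 49 and 9 with 5 and 20 CPM as present, 9 and 68 with 0 and 10 counts as absent, and 27 to 74 without single libraries. Of the values of tested genes, 447 kept their side of the threshold, 154 lost it and 1 gained it. The 2 that turned were brat under the double label against brat-KD (0.27, with −0.021 to 0.57 when single libraries were left out, the lowest without library 1 of that label) and Spt5 under the double label against the control (0.55, with −0.40 to 0.93, the lowest without library 3). With the replicate number as a block, 1735, 1 and 232 genes passed in the 3 comparisons. Of 45 values of named genes, some of brat and Spt5 without a call included, 30 lost their call. Among them were Rpn2 (edgeR adjusted p = 0.064), m (0.32), CG43672 (0.36) and Ir62a (0.32). None of these values kept a call under the double label against brat-KD. There grh, ImpL2 and CG43367 had edgeR adjusted p = 0.065 each, Mdr49 0.070, CG1494 0.072 and CG40006 0.13. Same-numbered libraries of different genotypes deviated together with correlations of −0.01 to 0.13, and differently numbered ones with −0.14 to 0.12. These values do not settle whether the numbers pair the libraries. The tallies of alternatives given with single genes leave the block out. A copia minimum of 4000 bp gave the same 17 genes. The shallowest library, with 2158058 counts, limits what is seen under the double label.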
